A study of Mus musculus with 2 samples.

Results

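Cholesterol is built from acetyl-CoA by a chain of enzymes, and 8 of them are described here in the neural tube of the mouse embryo: Hmgcs1, Mvd, Fdps, Fdft1, Sqle, Lss, Cyp51 and Dhcr7. They were chosen by symbol, matched through their Ensembl identifiers to the gene tables and to their transcripts, and make up 8 of the 43346 mouse genes in those tables. All 8 were found in both libraries. The study sequenced total RNA from neural tubes of healthy embryos of strain B6NCrl at embryonic day 12.5, with no treatment, mutant or other tissue beside them. Its 2 libraries form 1 group and differ in the pool of embryos: replicate 2 came from 88 embryos and replicate 1 from 120, males and females together. Both pools carry the same donor identifier, each library used 10 ng of RNA longer than 200 nucleotides, and spike-in RNA was added to both. Because each library is a pool, the spread between animals was not measured, and an SD over n = 2 covers only the spread between these pools.

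Replicate 2 held 34555002 expected counts, 33530172 of them on mouse genes, and replicate 1 held 32612423, with 31610805 on mouse genes. Levels below are TPM, a share of all transcripts that is corrected for the length of a gene and for depth. A gene counted as detected where both libraries had at least 1 TPM. Markers of neural progenitors (Sox2, Pax6, Hes5, Fabp7, Nes) and of neurons (Tubb3, Stmn2, Elavl3, Dcx, Snap25) were all detected, summing to 2036 and 1920 TPM in replicate 2 and to 2003 and 1752 TPM in replicate 1. Fabp7 made up most of the progenitor sum, at 1537 TPM in replicate 2 and 1469 TPM in replicate 1. The other 4 progenitor markers were lower in replicate 2. Of the neuron markers, 4 were higher in replicate 2 by TPM and 1, Elavl3, was lower. Liver, a main site of cholesterol synthesis in the body, was represented by 2 of 5 detected markers, with a summed level of 7.53 TPM in replicate 2 and 11.7 TPM in replicate 1. The 2 detected were Apoa2, at 4.49 TPM in replicate 2 and 6.23 TPM in replicate 1, and Afp, at 2.15 and 3.87 TPM. The liver product Alb was at 0.67 TPM in replicate 2 and 1.16 TPM in replicate 1. Of the markers of steroid-making cells, 1 of 4 was detected, summing to 2.20 TPM in replicate 2 and 1.99 TPM in replicate 1. Summed muscle markers stood at 173 TPM in replicate 2 and 243 TPM in replicate 1, and sensory ganglion markers at 377 and 261 TPM. Erythroid markers stood at 7286 TPM in replicate 2 and 7594 TPM in replicate 1, and mesenchyme markers at 832 and 808 TPM. Oligodendrocyte lineage and Schwann markers summed to 101 TPM in replicate 2 and 85.6 TPM in replicate 1. Endothelial markers summed to 79.98 and 74.1 TPM, and mature astrocyte markers to 8.60 and 8.08 TPM. In bulk tissue, fewer cells of a type and less RNA per cell cannot be told apart.

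The pathway has a first part, in which acetyl-CoA is turned through mevalonate into farnesyl diphosphate and then squalene, and a sterol part, in which squalene is closed into rings and trimmed to cholesterol. Its genes are known as targets of SREBP2, a membrane-bound transcription factor that is cleaved and moves to the nucleus when sterols in the endoplasmic reticulum are low. The embryonic brain is known to make most of its own cholesterol once its vascular barrier forms. Cholesterol is attached to the hedgehog protein, a ventral patterning signal of the neural tube, and loss of DHCR7 in humans causes Smith-Lemli-Opitz syndrome, which includes malformations of the brain.

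SREBP proteins are known to bind promoters together with NF-Y and Sp1, so the promoter windows of the enzymes were read for the letters those factors are known by. RefSeq windows on GRCm38.p6 run from 250 bases before a listed start to 50 after it, 300 bases in all, and 7 windows matched 5 of the 8 genes: 1 each for Hmgcs1, Mvd, Lss and Cyp51 and 3 for Dhcr7. The 4 genes with a single window are printed 5′ to 3′ on the strand of the gene, with all motif matches on either strand in capitals. They lie at chr13:119690101-119690400 (Hmgcs1, plus strand), chr8:122443373-122443672 (Mvd, minus strand), chr10:76531355-76531654 (Lss, plus strand) and chr5:4104648-4104947 (Cyp51, minus strand).
Hmgcs1: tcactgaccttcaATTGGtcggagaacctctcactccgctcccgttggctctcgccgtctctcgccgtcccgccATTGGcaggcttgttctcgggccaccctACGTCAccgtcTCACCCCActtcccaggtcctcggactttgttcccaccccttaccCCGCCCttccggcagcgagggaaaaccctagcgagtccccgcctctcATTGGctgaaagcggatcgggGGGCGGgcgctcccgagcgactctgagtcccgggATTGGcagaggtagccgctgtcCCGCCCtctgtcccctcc
Mvd: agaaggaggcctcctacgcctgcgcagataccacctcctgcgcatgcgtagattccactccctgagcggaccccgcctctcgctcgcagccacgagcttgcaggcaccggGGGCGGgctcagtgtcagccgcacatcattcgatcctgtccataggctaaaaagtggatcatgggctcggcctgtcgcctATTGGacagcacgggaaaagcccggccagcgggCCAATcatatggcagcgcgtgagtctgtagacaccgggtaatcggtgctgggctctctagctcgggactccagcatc
Lss: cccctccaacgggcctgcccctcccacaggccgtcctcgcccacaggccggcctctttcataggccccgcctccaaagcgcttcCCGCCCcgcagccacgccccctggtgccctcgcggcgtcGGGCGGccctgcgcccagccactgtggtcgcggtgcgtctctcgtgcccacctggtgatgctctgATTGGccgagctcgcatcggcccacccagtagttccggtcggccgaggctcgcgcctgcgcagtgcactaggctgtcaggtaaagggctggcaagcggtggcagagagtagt
Cyp51: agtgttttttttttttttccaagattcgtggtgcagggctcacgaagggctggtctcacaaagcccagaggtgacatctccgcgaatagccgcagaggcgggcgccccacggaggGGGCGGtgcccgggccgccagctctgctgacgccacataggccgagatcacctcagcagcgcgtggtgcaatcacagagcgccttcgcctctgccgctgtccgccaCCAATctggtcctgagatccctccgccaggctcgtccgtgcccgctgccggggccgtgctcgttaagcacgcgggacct

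The NF-Y letters CCAAT were in 5 of the 7 windows, and in at least 1 window of all 5 genes, while 37.4% of all 32851 RefSeq windows held them. In the Hmgcs1 window they occurred 4 times, each read on the minus strand as ATTGG in the line above. The Sp1 letters GGGCGG were in 6 of the 7 windows and again in at least 1 window of all 5 genes, against 35.7% of all windows. The sterol regulatory element was searched as the core TCACNCCA, and in a longer form with A before the core and C after it. The longer form was in 0 of the 7 windows and in 0.234% of all windows. The core was in 1 of the 7, at bases -137 to -130 of Hmgcs1, counting the RefSeq start as base 0, and in 4.36% of all windows. The CRE letters TGACGT, in 7.51% of all windows, were found once, at bases -148 to -143 of the same promoter on the minus strand, and so lie just upstream of that core without overlapping it. The E-box CACGTG, in 7.15% of all windows, was in 1 window of Dhcr7. In these 7 windows no match overlapped another. The member windows had a median GC content of 64.0%, against 52.7% over all windows, and GGGCGG is itself made of G and C. The leading transcript begins 95 bases downstream of the RefSeq start for Hmgcs1, 2 downstream for Lss, at the start for Mvd, and at base -49 for Cyp51. The leading start of Hmgcs1 thus lies past the end of its window. In Cyp51 the NF-Y match, at bases -29 to -25, lies downstream of the leading start. For Dhcr7 it begins at base -588 from the nearest RefSeq start, outside all 3 windows. Transcripts that begin within 100 bases of those 3 starts held 2.93%, 0% and 4.16% of the TPM of Dhcr7 in replicate 2 and 5.59%, 0% and 4.25% in replicate 1, so its motif matches do not describe the start of its main transcript. Only these exact letters were searched, so a site that differs from them by a base is not marked. These matches describe letters and not binding, and no binding was measured here.

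**Figure D1:**
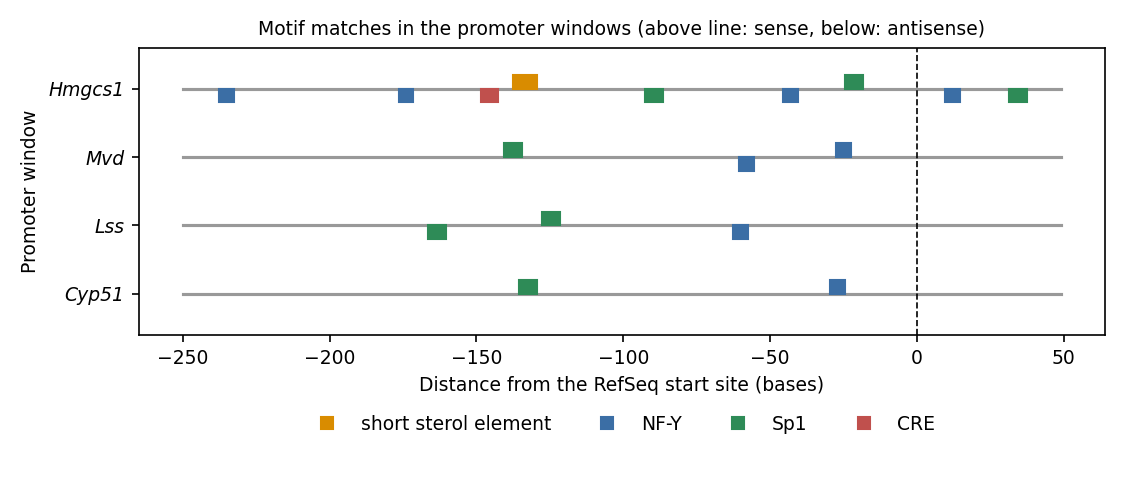
Motif matches in the promoter windows of Hmgcs1, Mvd, Lss and Cyp51, plotted by distance from the RefSeq start in bases, with sense matches above each line and antisense matches below. NF-Y (CCAAT) and Sp1 (GGGCGG) matches appear in all 4 windows, and among these 4 the sterol core and the CRE in that of Hmgcs1 alone.

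Hmgcs1 had the highest level of the 8 genes. It encodes the cytosolic synthase that joins acetoacetyl-CoA with acetyl-CoA into HMG-CoA, and lies on the plus strand at chr13:119690379-119708260 (ENSMUSG00000093930). It stood at 353 TPM in replicate 2 and 346 TPM in replicate 1 (mean 350 ± 4.67 SD, n = 2), from 22841 and 21592 counts. Among 13333 detected protein-coding genes this put it at percentile 97.3 in replicate 2 and 97.2 in replicate 1.

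Mvd, the decarboxylase that turns mevalonate diphosphate into isopentenyl diphosphate, lies on the minus strand at chr8:122433601-122443422 (ENSMUSG00000006517). Its level was 43.2 TPM in replicate 2 and 43.0 TPM in replicate 1 (43.1 ± 0.099), the smallest SD of the 8. Fdps condenses such isoprenoid units into farnesyl diphosphate and lies on the minus strand at chr3:89093588-89101959 (ENSMUSG00000059743). It reached 281 TPM in replicate 2 and 279.55 TPM in replicate 1 (280.2 ± 0.983), the next highest level after Hmgcs1 and 6.51-fold and 6.50-fold that of Mvd. Fdft1, squalene synthase, joins farnesyl units and commits them to sterols. It lies on the minus strand at chr14:63145150-63179578 (ENSMUSG00000021273) and was at 113 TPM in replicate 2 and 106 TPM in replicate 1 (109 ± 5.12).

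Among the sterol-forming enzymes Sqle was highest. It is squalene epoxidase, a rate-limiting oxygen-dependent step, and lies on the plus strand at chr15:59315077-59331192 (ENSMUSG00000022351). Its level was 164 TPM in replicate 2 and 150 TPM in replicate 1 (157 ± 9.98). Lss closes the epoxide into lanosterol and lies on the plus strand at chr10:76531588-76557138 (ENSMUSG00000033105). It was at 41.7 TPM in replicate 2 and 46.4 TPM in replicate 1 (44.0 ± 3.30), so Sqle exceeded it 3.93-fold and 3.23-fold. Cyp51, a cytochrome P450 that removes a methyl group from lanosterol, lies on the minus strand at chr5:4081145-4104746 (ENSMUSG00000001467). It was at 112 TPM in replicate 2 and 103 TPM in replicate 1 (108 ± 5.95). Dhcr7, which reduces 7-dehydrocholesterol to cholesterol, lies on the plus strand at chr7:143823145-143848410 (ENSMUSG00000058454). It was at 44.1 TPM in replicate 2 and 39.9 TPM in replicate 1 (42.0 ± 2.95).

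The 8 genes lie on 8 different chromosomes, and all coordinates above are on GRCm38. Their levels spanned 8.01-fold in replicate 2 and 8.68-fold in replicate 1 from Hmgcs1 down to Dhcr7. The order by mean was Hmgcs1, Fdps, Sqle, Fdft1, Cyp51, Lss, Mvd and Dhcr7. Of the 7 pairs of neighbours in that order, 4 had ranges over the libraries that did not overlap. The other 3 pairs did overlap: Fdft1 with Cyp51, Lss with Mvd, and Mvd with Dhcr7. The step between the 5 high genes and the 3 low ones, from Cyp51 to Lss, was 2.68-fold in replicate 2 and 2.23-fold in replicate 1. Both percentile ranges show the same gap, with Cyp51 at 89.0 in replicate 2 and 88.1 in replicate 1 and Lss at 68.5 and 72.0.

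**Figure D2:**
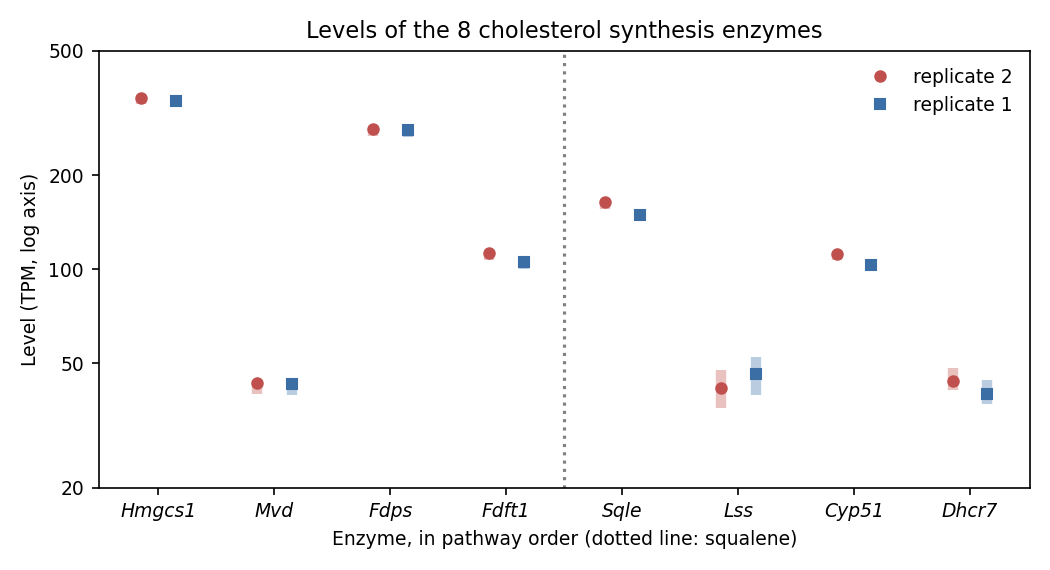
Level of each of the 8 enzymes in TPM (log axis) for replicate 2 and replicate 1, with the deposited interval of each value. Hmgcs1 and Fdps lie near 350 and 280 TPM, and Lss, Mvd and Dhcr7 between 39.9 and 46.4 TPM.

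Some of these values rest on reads that other loci could claim, and it is not known whether reads were counted by strand. Every 100-base window of each gene's leading transcript was compared with the annotated transcripts of other genes. For Mvd, Sqle and Dhcr7, 0% of windows occurred elsewhere. For Fdps 69.8% were shared with another annotated gene, chiefly Gm43738 (66.1%). Gm43738 overlaps Fdps at the same locus, by 7512 bases on the same strand. It has no value in these tables, so no counts were assigned to it. Gm3571 and Gm5873 share 14.9% and 6.33% of the Fdps windows. They were at 0.96 and 0.28 TPM in replicate 2 and at 1.56 and 0.52 TPM in replicate 1. For Fdft1 28.0% of windows were shared, of which most (24.3%) lie in Ctsb, a protease gene on the opposite strand that overlaps it by 774 bases and was at 85.2 TPM in replicate 2 and 77.4 TPM in replicate 1. Hmgcs1 shares 11.5% of windows with the antisense gene Gm48342, which has no value here. Cyp51 shares 1.75% with Akap9 on the opposite strand, and Lss 1.31% with 4930483K19Rik. Levels of Fdps and Fdft1 are therefore uncertain in the amount that such reads contribute, which was not tested.

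Set beside the 13 other enzymes of the pathway, the 8 genes were higher as a list. Their median was 112 TPM in replicate 2 and 105 TPM in replicate 1, against 52.8 and 51.8 TPM for the other enzymes and 21.7 and 20.97 TPM for all detected protein-coding genes. On the log2(TPM + 1) scale the medians of the 8 and of the 13 differed by 1.08 in replicate 2 and 1.00 in replicate 1 (1.04 ± 0.06). Without the correction for length, in CPM, that difference was 2.02. The quartiles of the lists overlapped, at 43.8 to 188 TPM for the 8 and 32.8 to 91.1 TPM for the 13. The 8 genes summed to 1152 TPM in replicate 2 and 1114 TPM in replicate 1, and the 13 to 1077 and 1033 TPM. The 8 thus held 51.7% and 51.9% of the pathway's TPM (51.8 ± 0.159). Hmgcs1 and Fdps alone made up 55.1% of the summed TPM of the 8 in replicate 2 and 56.2% in replicate 1.

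The enzymes up to squalene and those from squalene on were each represented by 4 of the 8 genes. The first 4 had a median of 197 TPM in replicate 2 and 193 TPM in replicate 1, and the sterol-forming 4 had 77.9 and 74.9 TPM. The medians differed by 1.33 in replicate 2 and 1.30 in replicate 1 on the log2(TPM + 1) scale (1.32 ± 0.02). Both sets nevertheless held high and low genes, since Mvd lay among the lowest and Sqle among the highest, and their quartiles overlapped at 92.8 to 298 TPM and 43.5 to 120 TPM. Without the correction for length, in CPM, the difference was 0.34.

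Of the other early enzymes, Acat2, the thiolase that feeds Hmgcs1, was at 316 TPM in replicate 2 and 310 TPM in replicate 1. The kinases Mvk and Pmvk had 47.9 and 67.3 TPM in replicate 2 and 48.1 and 69.0 TPM in replicate 1, both above Mvd, the next enzyme. Idi1, the isomerase of isopentenyl diphosphate, was at 96.7 TPM in replicate 2 and 85.4 TPM in replicate 1.

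Among the enzymes that follow Cyp51, Msmo1, which oxidises methyl groups, was highest at 131 TPM in replicate 2 and 126 TPM in replicate 1. The sterol reductases Tm7sf2 and Lbr, which act on the same double bond, had 46.4 and 74.8 TPM in replicate 2 and 46.1 and 75.6 TPM in replicate 1. Nsdhl and Hsd17b7, which complete the removal of methyl groups, had 34.3 and 22.8 TPM in replicate 2 and 31.3 and 23.6 TPM in replicate 1. The isomerase Ebp and the desaturase Sc5d had 29.9 and 52.8 TPM in replicate 2 and 27.5 and 51.8 TPM in replicate 1.

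**Figure D3:**
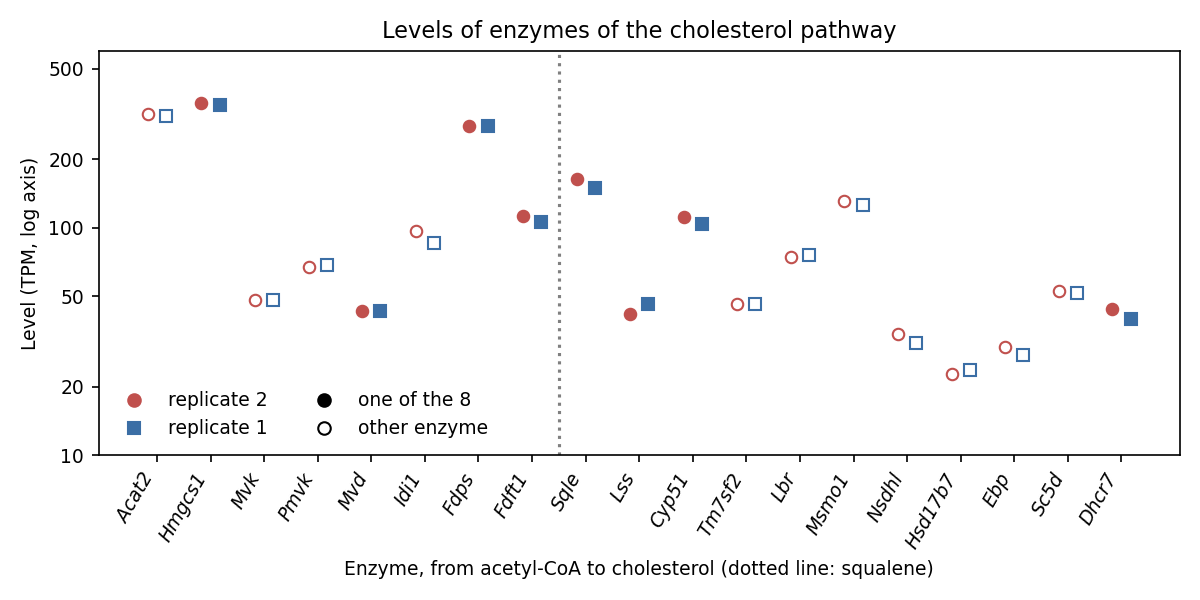
Level of enzymes of the pathway in TPM (log axis), in the order of the reactions, for replicate 2 and replicate 1, with filled symbols for the 8 enzymes of the text and open symbols for the others reported here. Hmgcs1 is the highest of those drawn, at 353 and 346 TPM, and Hsd17b7 the lowest, at 22.8 and 23.6 TPM.

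The pools gave nearly the same levels. None of the 8 genes differed over 2-fold between them, and among the 15735 genes whose mean reached 1 TPM this held for 1.43%. The ratios of replicate 2 over replicate 1, as log2(TPM + 1), were 0.03 for Hmgcs1, 0.00 for Mvd, 0.01 for Fdps, 0.09 for Fdft1, 0.13 for Sqle, -0.15 for Lss, 0.11 for Cyp51 and 0.14 for Dhcr7. By TPM 7 of the 8 were higher in replicate 2, where 58.5% of all genes and 61% of the 3894 genes at the level of these enzymes (42.0 to 350 TPM on average) were. With counts scaled by TMM 5 of the 8 were higher, where 50.2% of all genes and 47.3% at that level were. The median ratio of the 8 was 0.06 by TPM and 0.04 by counts, against 0.03 and 0.00 over all genes. Genes at the level of these enzymes had ratios from -0.16 to 0.20 between the 5th and 95th percentiles by TPM, a range that holds all 8.

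The deposited intervals of TPM did not overlap between the libraries for 3 of the 8 genes, Fdft1, Sqle and Cyp51, all higher in replicate 2. The background of such calls was 10.1% of all genes and 15.7% at the level of these enzymes. None of the 8 was apart in the other direction, where 4.19% of all genes were. The Sqle interval ran from 156 to 163 TPM in replicate 2 and from 142 to 149 TPM in replicate 1. That of Cyp51 ran from 107 to 112 TPM in replicate 2 and from 98.7 to 104 TPM in replicate 1. For 4 of the 8 genes, Hmgcs1, Fdps, Fdft1 and Sqle, the deposited TPM itself lay above its own interval in each library. Fdft1 and Sqle are thus among both these genes and those with intervals apart. The level of the intervals is not stated.

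Counts scaled by TMM gave 4 genes whose exact 95% binomial interval lay above 0 on the log2 scale. These were Fdft1 (0.06, from 0.00 to 0.11), Sqle (0.09, from 0.05 to 0.14), Cyp51 (0.07, from 0.03 to 0.12) and Dhcr7 (0.15, from 0.06 to 0.24). The lower bound for Fdft1 was above 0 only before rounding. Over all 15735 genes 17.1% had an interval above 0, and 21.3% did at the level of these enzymes. Intervals below 0 were found for none of the 8, against 16.2% of all genes and 22.7% at that level. Such intervals cover counting error only, and with 1 library of each pool the ratios have no replicate of their own. The 4 sterol-forming genes were all higher in replicate 2 by counts (median 0.08), while of the 4 genes up to squalene 1 was (median -0.02). By counts 50.2% of all genes and 47.3% at that level were higher. Of the sterol-forming 4, Lss had only 0.02, with an interval from -0.06 to 0.09. The other enzymes of the pathway had count ratios of both signs in each part. Hmgcs1, Mvd and Fdps had small ratios that were positive by TPM and negative by counts, at -0.01, -0.04 and -0.03. Among the other enzymes, Idi1 also had intervals of TPM apart, with a TPM ratio of 0.18. By TPM 8 of the 13 other enzymes were higher in replicate 2, and by counts 6 of 13. Hsd17b7 had a ratio of -0.05 by TPM and 0.18 by counts (from 0.07 to 0.28). Markers also differed between the pools: by counts all 4 muscle markers were lower in replicate 2 and all 4 ganglion markers higher. Of the 5 oligodendrocyte lineage and Schwann markers, 4 were higher and 1 lower by counts. Neuron markers had both signs, with 3 higher and 2 lower (median 0.00). The part of such differences in these ratios was not tested.

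**Figure D4:**
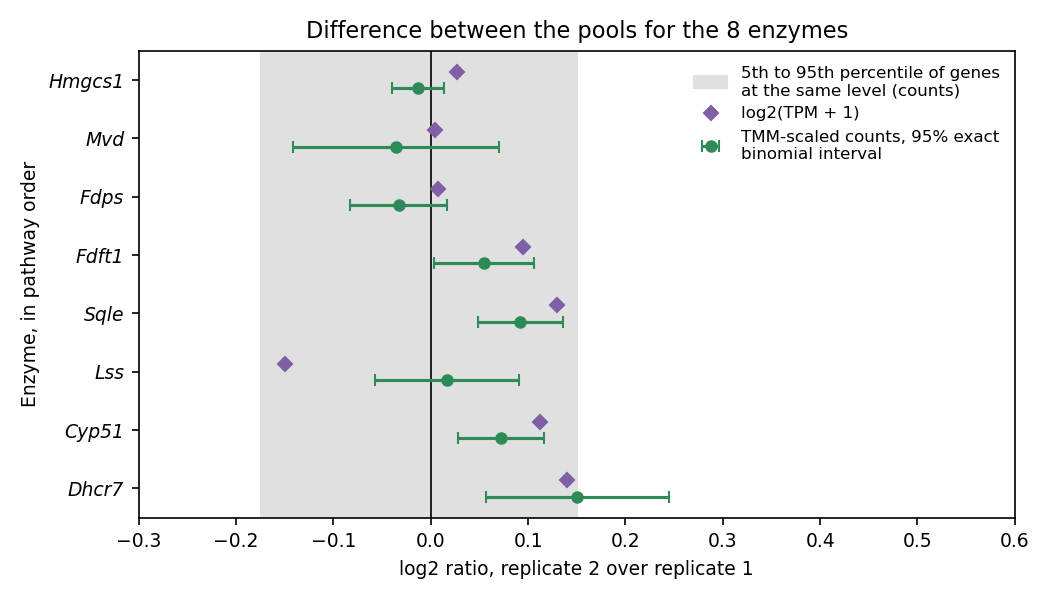
Log2 ratio of replicate 2 over replicate 1 for each of the 8 enzymes, by TPM and by TMM-scaled counts with the exact 95% binomial interval of the count ratio, over a grey band for the 5th to 95th percentiles of the count ratio of genes at the same level. Lss has a ratio of -0.15 by TPM and 0.02 by counts, and Dhcr7 has 0.14 and 0.15.

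Of the 8 genes, Lss had the widest gap between the ratio by TPM and the ratio by counts. It was lower in replicate 2 by TPM (-0.15) and had a count ratio of 0.02 (from -0.06 to 0.09), with 3081 counts in replicate 2 and 2853 in replicate 1. Its effective length was 3580 nucleotides in replicate 2 and 3094 in replicate 1. The 4 Lss transcripts under 1000 nucleotides summed to 12.4 TPM in replicate 2 and 18.3 TPM in replicate 1. They held 29.9% and 39.5% of the TPM of Lss, and only 2.55% and 3.99% of its counts. Among these 4, Lss-205 differed most, at 2.65 TPM in replicate 2 and 8.11 TPM in replicate 1, from 17.9 and 52.6 counts. Lss-202 went the other way, at 7.19 and 6.08 TPM. How much of the gap comes from any of them was not tested. The 4 longer transcripts summed to 29.3 TPM in replicate 2 and 28.1 TPM in replicate 1.

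The 8 genes had 29 transcripts in the tables, and 16 of these reached 1 TPM in both libraries. The leading transcript was the same in both libraries for 8 of 8 genes. For Hmgcs1, Mvd, Fdps and Fdft1 this holds by construction, since the deposited tables list 1 transcript each. Sqle and Cyp51 were made up almost wholly of 1 coding form. Sqle-201, with 11 exons and a coding length of 1716 nucleotides, held 97.0% of the TPM of Sqle in replicate 2 and 97.5% in replicate 1. Cyp51-201, with 10 exons and a coding length of 1509 nucleotides, held 99.4% and 99.5%.

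Lss and Dhcr7 were more divided. The coding transcript Lss-201, with 22 exons, held 49.4% of the TPM of Lss in replicate 2 and 44.4% in replicate 1. Its level was the same in both, at 20.61 TPM in replicate 2 and 20.60 TPM in replicate 1. The retained-intron transcript Lss-204, of 6992 nucleotides, held 12.9% in replicate 2 and 9.50% in replicate 1, and the short processed transcript Lss-202 held 17.3% and 13.1%. Lss-205, a retained-intron transcript of 425 nucleotides, held 6.37% in replicate 2 and 17.5% in replicate 1, from 17.9 and 52.6 counts. By counts, retained-intron forms made up 35.6% of Lss in replicate 2 and 33.0% in replicate 1, and coding forms 63.2% and 65.9%. By TPM, retained-intron forms made up 31.2% in replicate 2 and 37.9% in replicate 1, and coding forms 51.6% and 49.0%. The direction between the libraries was thus opposite by counts and by TPM.

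Dhcr7-202, with 9 exons and a coding length of 1413 nucleotides, held 83.7% of the TPM of Dhcr7 in replicate 2 and 75.9% in replicate 1. Its level was 36.9 TPM in replicate 2 and 30.3 TPM in replicate 1. The nonsense-mediated decay transcript Dhcr7-210, of 721 nucleotides, held 5.46% of TPM in replicate 2, with 1.53% of counts, and 12.95% in replicate 1, with 3.76% of counts. Transcripts of Dhcr7 begin in 3 regions of the gene. The 5 that begin between bases 143829626 and 143830258 of chromosome 7 accounted for 88.7% of TPM in replicate 2 and 80.9% in replicate 1. The 3 that begin upstream, between 143823145 and 143823167, held 2.93% and 5.59%, and the 2 downstream, between 143840929 and 143841334, held 8.37% and 13.5%. The leading start is thus not the outermost one.

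**Figure D5:**
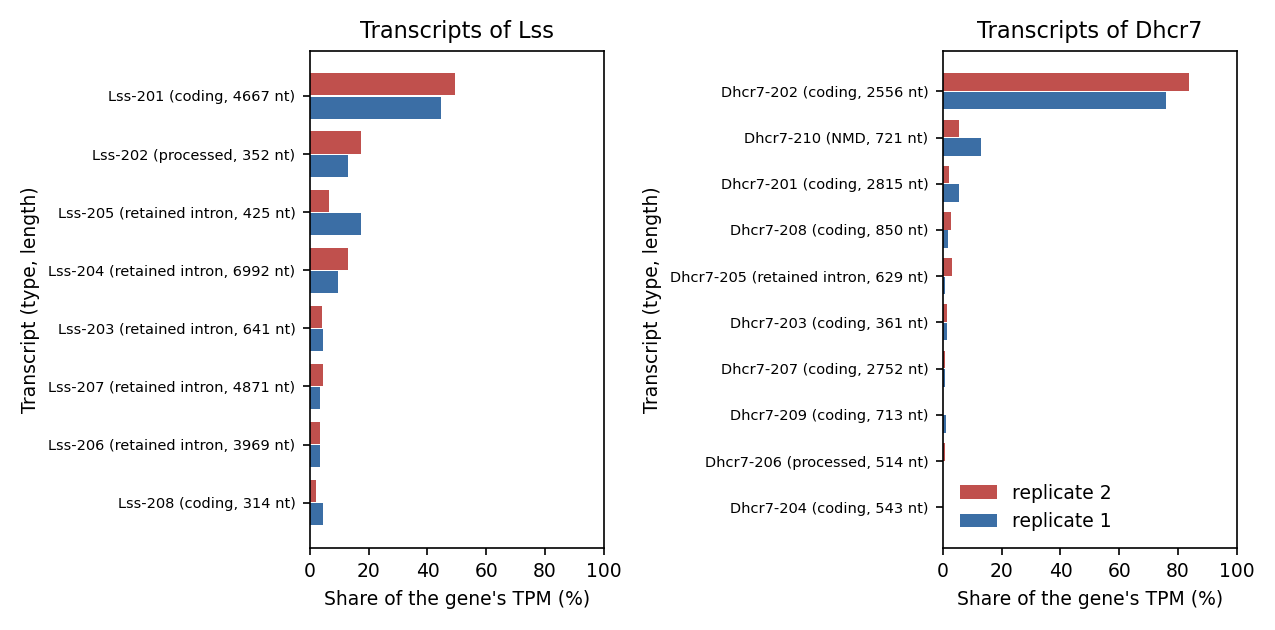
Share of the TPM of Lss and of Dhcr7 held by each of their transcripts, in percent, with replicate 2 above replicate 1. Lss-201 holds 49.4% in replicate 2 and 44.4% in replicate 1, and Dhcr7-202 holds 83.7% and 75.9%.

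The genes that control SREBP cleavage were all detected, 10 of 10, with a median of 34.7 TPM in replicate 2 and 34.0 TPM in replicate 1. Srebf2, which encodes SREBP2, was the highest at 118 TPM in replicate 2 and 119 TPM in replicate 1 (118.9 ± 0.566). It exceeded Srebf1, the paralog known mainly for fatty acid genes, 2.93-fold in both libraries. Mbtps1, a protease that cuts SREBP in the Golgi, followed at 72.8 TPM in replicate 2 and 70.1 TPM in replicate 1. Srebf2 lay between Sqle and Fdft1 in both libraries.

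Genes of sterol uptake, transport and efflux were detected in 14 of 15 cases, with a median of 15.8 TPM in replicate 2 and 16.3 TPM in replicate 1. That is below the medians of both the 8 enzymes and the 13. Apoe, the main lipid carrier of neural tissue, was the highest at 169 TPM in replicate 2 and 166 TPM in replicate 1, near the level of Sqle. The lipoprotein receptor gene Lrp1 was at 78.8 TPM in replicate 2 and 69.9 TPM in replicate 1. No member of that list was under 1 TPM in both libraries.

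Likeness was measured as the summed absolute difference of log2(TPM + 1) from the median of the 8 genes over the 2 libraries, among protein-coding genes outside all lists. The closest were Crk, an adaptor of tyrosine kinase signalling, with a sum of 0.0125, Diablo, a mitochondrial apoptosis protein, with 0.0170, and Ash2l, a subunit of histone methyltransferases, with 0.0248. Crk was at 113 TPM in replicate 2 and 105 TPM in replicate 1. With 2 libraries such likeness measures level alone.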

How the data were processed

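Per the labels' protocols, RNA was extracted with a mirVana kit, and the linked documents include the manual of a SMARTer low-input kit. The replicate numbers are those in the labels. Per the deposited read-me text, alignments used assembly mm10 and GENCODE annotation M4, and the sources used here name no program for the tables. Its title says that another series has replaced this one, and that series was not used here.

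The authors deposited expected counts for genes and for transcripts, which are estimates and can be fractions. Of the 8 enzymes, 5 had counts within 0.005 of a whole number in both libraries. The authors' TPM and FPKM take account of depth and of effective length, per the file headers. Deposited percent values give the share of each transcript in the TPM of its gene. The deposited bounds of TPM were treated as a signal with an unstated interval level.

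Names and coordinates (1-based) come from GENCODE M21 on GRCm38, matched by identifier without version for 42462 of 43346 mouse genes. Spike-in rows and rows named by number were left out of gene counts and of library totals for scaling. Ratios are log2 of TPM plus a pseudocount of 1, replicate 2 over replicate 1, and are too small for genes of low level. Count ratios used expected counts scaled by TMM in edgeR 4.0.16 (factors 1.003 and 0.997). DESeq2 1.42.0 size factors (1.03 and 0.968) were an alternative. Ratios of single enzymes had nothing added, and the exact 95% binomial intervals used counts rounded to whole numbers. For list medians, numbers of genes in a direction, percentile ranges and alternatives, 0.5 was added to each count. A floor of 3 counts corresponds to 0.0895 CPM in replicate 2 and 0.0949 CPM in replicate 1. Windows of 100 bases were used for shared sequence. Transcript starts of Dhcr7 over 2000 bases apart were taken as separate regions. With 1 group no test and no p-value was possible. The scripts were tested on simulated data. Python 3.11.15, pandas 2.3.3, SciPy 1.17.1, matplotlib 3.10.9 and R 4.3.3 were used.

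The enzymes, the further gene lists, the marker lists and the motifs were chosen with earlier results of these data known. The text names all 8 enzymes, other enzymes of the pathway, the 2 highest members of each further list and up to 2 under 1 TPM in both libraries, transcripts holding at least 10% of a gene in either library, and the 3 genes of closest level. Genes named outside this rule, such as overlapping genes and Srebf1, were chosen after their values were seen. Of the pathway, a few enzymes counted in the list of 13 are not reported by name. Alternatives were another value column, pseudocount, scaling, filter or list summary, no correction for length, and leaving out each library.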

Additional observations from a re-analysis of the deposited data

How the results depend on the processing

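The level of the 8 enzymes (median of the mean, 109 TPM) was 65.5 in FPKM and 117 when TPM was rescaled over mouse genes, both changes of scale, and 104.6 to 112 when either library was left out. Their difference from the 13 other enzymes (1.04) was 2.02 in CPM without correction for length and 0.93 from list means, and ranged from 1.00 to 1.08 over single libraries. The difference between the enzymes up to squalene and those from squalene on (1.32) was 0.34 in CPM, and 1.30 to 1.33 over single libraries. The share of the pathway (51.8%) was 53.6% in CPM, and 51.7% to 51.9% over single libraries. The median ratio between pools (0.06) was 0.036 with TMM scaling and 0.036 with DESeq2 size factors. Genes over 2-fold apart numbered 225, and 381 with no filter on low values, which tests more genes. Of 32 alternatives for these summaries 9 were labelled as moving the value and 0 as reversing it. Where a summary had an SD over the libraries, a shift within that SD did not count as moved. Leaving out 1 library shifts the mean of 2 by less than their SD, so it could not count as moved. The filter of at least 1 TPM changed nothing, because all listed enzymes pass it. Enzymes of the 8 higher in replicate 2 fell from 7 by TPM to 5 under each count scaling, which is not among the 9. For single enzymes, 6 of 40 alternatives moved the ratio, 3 for Hmgcs1 and 3 for Lss, all of them count scalings, under which the sign of the ratio changed for Hmgcs1, Mvd, Fdps and Lss. The cause was not tested. The leading transcript was the same in both libraries for 8 of 8 genes also by the posterior mean share, and leaving out a library gives no such comparison. No paired analysis was possible because there is 1 group. The lowest count of any of the 8 enzymes was 1422, while the short transcripts of Lss and Dhcr7 rest on few counts.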

Other observations

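Farnesyl diphosphate, the product of Fdps, also feeds protein prenylation, dolichol and ubiquinone. All 13 listed genes of those branches were detected, with a median of 31.5 TPM in replicate 2 and 32.2 TPM in replicate 1. The highest were Fnta, a subunit of protein farnesyltransferase, at 72.2 TPM in replicate 2 and 69.6 TPM in replicate 1, and Ggps1, which makes geranylgeranyl diphosphate, at 52.7 and 48.9 TPM. Fdft1, the branch towards sterols, was above both in each library, at 113 TPM in replicate 2 and 106 TPM in replicate 1.

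Fatty acid synthesis shares acetyl-CoA with the pathway, and 10 of 10 listed genes were detected, with a median of 51.8 TPM in replicate 2 and 46.0 TPM in replicate 1. Acly, which makes cytosolic acetyl-CoA, was at 312 TPM in replicate 2 and 293 TPM in replicate 1, and the desaturase gene Scd2 had 308 and 291 TPM, levels between those of Hmgcs1 and Sqle. By TPM 9 of the 10 were higher in replicate 2 (median ratio 0.14), and by counts also 9 (median 0.08), against 58.5% and 50.2% of all genes.

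Enzymes that oxidise sterols or make bile acids were low. Of 7, 6 were detected, with a median of 5.24 TPM in replicate 2 and 3.26 TPM in replicate 1. Cyp39a1 and Hsd3b7 were the highest, at 15.7 and 7.92 TPM in replicate 2 and at 14.2 and 7.73 TPM in replicate 1. Cyp7a1, the first enzyme of bile acid synthesis in liver, had 0 counts in both libraries, which allows up to 0.0895 CPM in replicate 2 and 0.0949 CPM in replicate 1.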
